A study of Mus musculus with 4 samples.

Results

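Phase II conjugation enzymes were followed in mouse liver over 4 ages. Their genes were taken by symbol: the UDP-glucuronosyltransferases (Ugt1 to Ugt3), the soluble glutathione S-transferases (Gsta, Gstk, Gstm, Gsto, Gstp, Gstt and Gstz), the microsomal glutathione S-transferases (Mgst) and the sulfotransferases (Sult). This selection found 63 of the 33924 gene symbols in the count files, and it used no measured value. Of these 63 genes, 22 belong to the soluble glutathione S-transferases, 3 to the microsomal forms, 20 to the UDP-glucuronosyltransferases and 18 to the sulfotransferases. They include Sult2a7, which is annotated as a pseudogene, and the processed copy Gstm2-ps1.

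The liver samples came from untreated mice of strain C57BL6 (C57BL/6Rj in the study's methods), all male. They were 3, 9, 15 or 21 months old. Each age was 1 library, pooled from 24 mice (6 times of day with 4 mice each), so the values have no replicate error and average over the day. Reads of 35 bases came from the capped 5'-ends of RNA. The 4 ages are the groups compared, and the question is how expression in the liver differs with age.

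Conjugation makes lipophilic compounds water-soluble, so that bile and urine can carry them away. UDP-glucuronosyltransferases sit in the endoplasmic reticulum and add glucuronic acid to bilirubin, steroids, bile acids and drugs. Glutathione S-transferases join glutathione to reactive electrophiles, and sulfotransferases pass sulfate from the donor PAPS to phenols, steroids and amines. The liver is the main site of all these reactions, and many of the genes lie in clusters of the same family.

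The libraries held 955934, 958586, 525772 and 735962 counts on genes at 3, 9, 15 and 21 months, and the 15 month library was the shallowest. Between 72.2% and 76.7% of the records per library had no unique alignment and were not counted. Counts were divided by a scale factor per library, the geometric mean over the 8704 genes counted in every library, as in the centered log-ratio (clr). The result is called the clr-normalised count. The summed clr-normalised count of 4 hepatocyte markers (Alb, Apoa1, Ttr and Tat) lay between 51786 and 63136, whereas that of 5 bile duct markers lay between 13.5 and 30.2, with Epcam at 0 in every library. Pericentral hepatocyte markers summed to between 13404 and 16069, periportal ones to between 5842 and 9096, endothelial ones to between 508 and 562 and lymphocyte ones to between 1.65 and 15.7. Kupffer cell markers summed to 434, 546, 503 and 594 and stellate cell markers to 263, 470, 408 and 417 at 3, 9, 15 and 21 months. The part of these cell types in the results was not tested. In such tissue RNA, fewer cells of a type and less RNA per cell cannot be told apart.

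Of the 63 genes, 34 had at least 40 counts summed over the 4 libraries and were tested together with all other such genes, 5090 in total. A further 12 had between 1 and 36 counts, and 17 had no count in any library. The genes without a count were Gsto2, Gstt4, Mgst2, Sult1c1, Sult1e1, Sult2a1 to Sult2a7, Sult3a1, Sult4a1, Sult6b1, Ugt1a10 and Ugt2a1. A count of 0 allows up to 3.14, 3.13, 5.71 and 4.08 CPM (counts scaled to a fixed library total) at 3, 9, 15 and 21 months. All intervals and limits given here cover counting error only.

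The promoters of 3 genes that stood apart in the counts are printed first. Gstp1, which had the most counts of the 63 genes over the libraries together, was lower at 21 than at 3 months. Its neighbour Gstp2 was higher. Sult1d1 was also higher at 21 than at 3 months. RefSeq gives the 250 bases before their transcription start on GRCm38.p6. This is a later build than the NCBIM37 (mm9) of the counts, and its coordinates are used for the promoters alone. Capitals mark exact matches, on either strand, to 3 short motifs: the core of the antioxidant response element (TGACNNNGC), the core of the xenobiotic response element (GCGTG) and the AP-1 site (TGAGTCA). The last motif was added after the Gstp1 promoter had been read. It can overlap the antioxidant core.
Gstp1 promoter, chr19:4037913-4038162, minus strand: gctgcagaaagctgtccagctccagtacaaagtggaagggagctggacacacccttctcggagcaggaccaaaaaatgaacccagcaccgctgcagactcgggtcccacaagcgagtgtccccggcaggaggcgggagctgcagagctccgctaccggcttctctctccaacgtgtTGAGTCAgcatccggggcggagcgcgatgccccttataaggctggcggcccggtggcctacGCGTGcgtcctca
Gstp2 promoter, chr19:4042222-4042471, minus strand: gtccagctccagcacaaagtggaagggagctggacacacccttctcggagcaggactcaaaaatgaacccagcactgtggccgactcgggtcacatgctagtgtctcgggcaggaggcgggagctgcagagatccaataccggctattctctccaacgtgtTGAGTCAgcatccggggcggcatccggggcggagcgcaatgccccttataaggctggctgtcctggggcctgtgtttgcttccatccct
Sult1d1 promoter, chr5:87569007-87569256, minus strand: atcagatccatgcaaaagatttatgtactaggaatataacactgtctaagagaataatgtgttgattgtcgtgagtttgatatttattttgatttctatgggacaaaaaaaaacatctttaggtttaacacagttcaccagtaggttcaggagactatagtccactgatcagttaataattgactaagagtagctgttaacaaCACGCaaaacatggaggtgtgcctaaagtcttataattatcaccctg

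The Gstp1 and Gstp2 promoters were alike, with 208 identical bases in 265 aligned columns (78.5%). Both hold the AP-1 site, and Gstp1 alone of the pair holds GCGTG, which starts 13 bases before the transcription start. Sult1d1 holds GCGTG, read on the other strand.

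Promoters were found for 54 of the 63 genes, 65 promoters in all. The xenobiotic core, bound by the aryl hydrocarbon receptor, occurred in 16.9% of them, against 28.2% of all 32851 RefSeq promoters of this length. The antioxidant core, bound by NRF2, occurred in 6.15% against 10.2%, in Gsta3, Gstm5, Gstm7 and Mgst1. Looser forms of this core were not searched. For the AP-1 site the shares were 10.8% and 4.46%, in Gstm5, Gstp1, Gstp2, Mgst2, Sult1c1, Sult2b1 and Ugt2b37. This motif was chosen from the Gstp1 promoter, so its higher share cannot be read as an excess. Of the genes that hold it, Gstp1 and Gstp2 alone had at least 40 counts. Many of these genes are neighbours that arose by duplication, so their promoters are not independent of each other. A match describes the letters of the promoter and no binding was measured.

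Together the 63 genes took 2.30% of all counts at 3 months, 1.92% at 9, 1.46% at 15 and 1.74% at 21 months. A pair of genes made up most of this share, Gstp1 and Gstm1. Without both, the remaining 61 genes took 0.727%, 0.787%, 0.693% and 0.728%. The sum was therefore lowest at 15 months with and without the pair, but without it the values at 3 and 21 months lay close together.

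**Figure D1:**
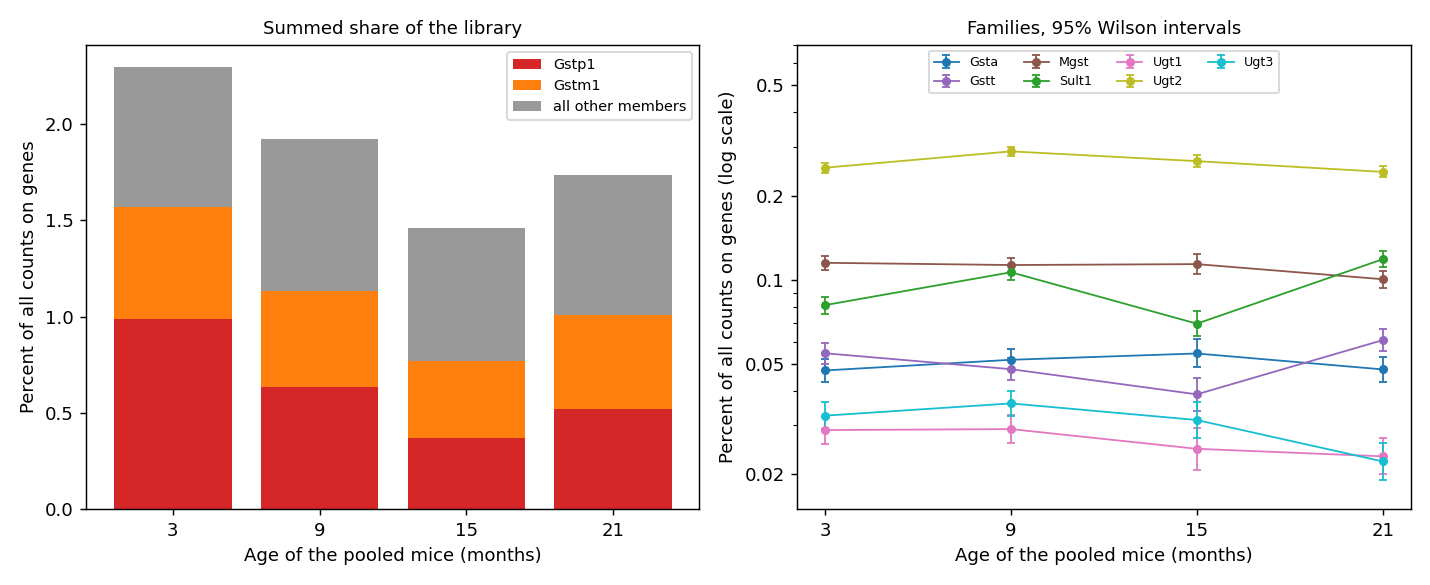
Percent of all counts on genes at 3, 9, 15 and 21 months, 1 pooled library per age. Left, stacked bars of Gstp1, Gstm1 and all other genes of the 63, which add up to 2.30% at 3 and 1.46% at 15 months; right, sums of 7 families on a log axis with 95% Wilson intervals for counting error, where Sult1 and Gstt are lowest at 15 and highest at 21 months.

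A chi-square test compared the 4 libraries gene by gene, with expected counts from the scale factors and Benjamini-Hochberg adjustment over all 5090 genes. It asks whether libraries differ beyond counting noise and does not separate age from other differences between single libraries. At an adjusted p of 0.05, 20 of the 34 genes (58.8%) passed, against 37.7% of all genes. Abundant genes pass more easily. Among genes with at least 100 counts in every library, 10 of 14 (71.4%) passed, against 79.1% of 497 genes. The median variance of clr over the ages was 0.0510 for the 34 genes and 0.0872 for all genes.

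A linear trend with age was tested with edgeR's quasi-likelihood test, which has 2 residual degrees of freedom here. None of the 34 genes passed in either direction at an adjusted p of 0.05. Over all genes, 0.0393% passed upwards and 0.0196% downwards. At an unadjusted p under 0.05 there were 5 of the 34, Gstp1, Ugt3a1, Ugt2b38, Sult1d1 and Gstm4. These are 14.7%, against 5.54% of all genes. Without the 3, 9, 15 or 21 month library the number was 1, 3, 2 and 4. DESeq2's Wald test likewise called 0 after adjustment and 1 at an unadjusted p under 0.05, Gstp1.

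The 2 ends of the age range were then compared by ratio, with 1.5-fold as the threshold and no test. From 3 to 21 months, 3 of the 34 genes (8.82%) were higher past 1.5-fold, against 17.7% of all genes, and 7 (20.6%) were lower, against 21.4%. The 3 higher genes were Gstp2, Sult1d1 and Ugt2a3. The 7 lower genes were Gsta4, Gstm3, Gstm4, Gstp1, Ugt1a1, Ugt2b38 and Ugt3a1. The median log2 ratio was -0.09 for the 34 genes and -0.03 for all genes.

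**Figure D2:**
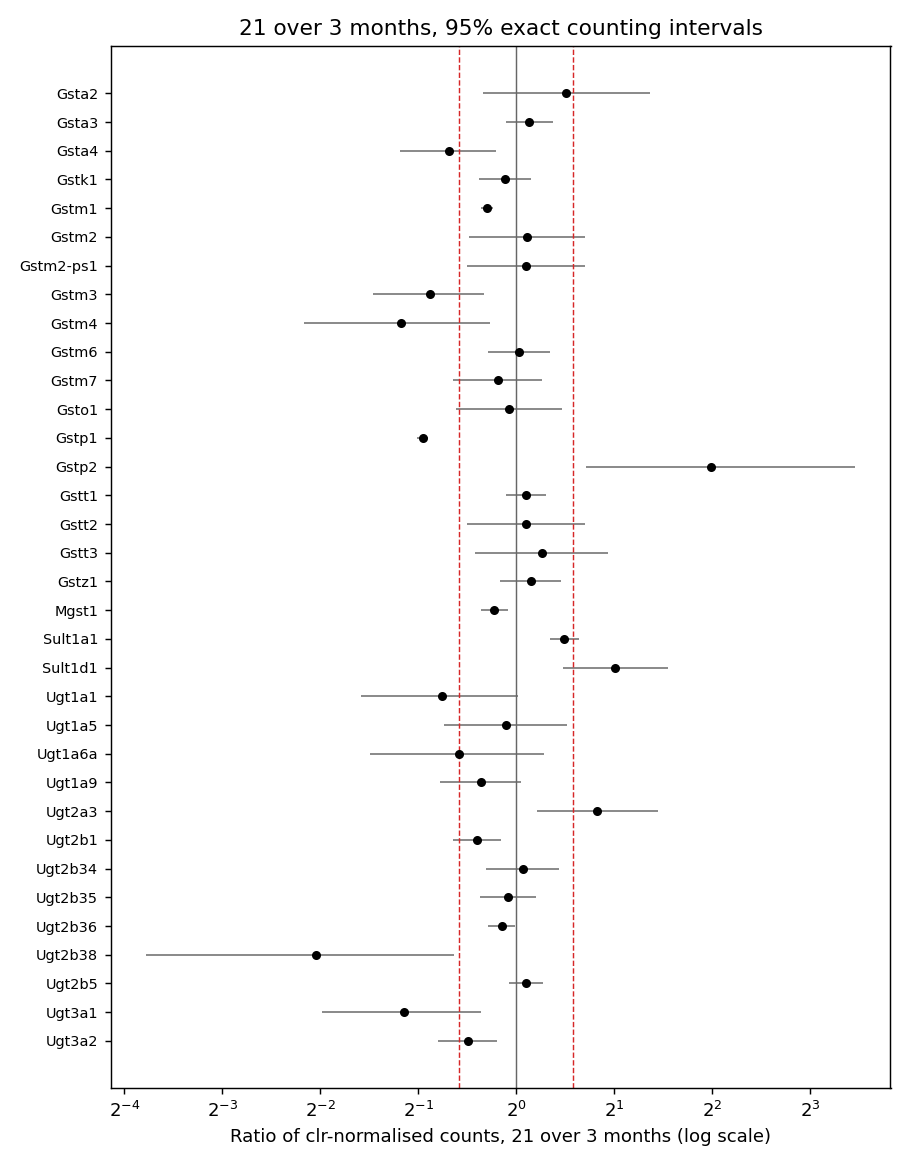
Ratio of clr-normalised counts at 21 over 3 months for the 34 genes with at least 40 counts, on a log axis, with 95% exact intervals for counting error as bars, 1 library per age. The dashed lines mark 1.5-fold in either direction; Gstp2 lies highest at 3.97 and Ugt2b38 lowest at 0.243, while Gstp1 has the narrow interval of an abundant gene at 0.516.

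Step by step, the genes differed most between 9 and 15 months. From 3 to 9 months, 4 (11.8%) were higher past 1.5-fold against 18.1% of all genes, and 4 (11.8%) were lower against 19.3%. Between 9 and 15 months, 1 (2.94%) was higher against 17.1%, and 12 (35.3%) were lower against 22.5%. From 15 to 21 months, 6 (17.6%) were higher against 23.1%, and 3 (8.82%) were lower against 18.4%.

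The 12 genes lower at 15 than at 9 months spanned all 3 enzyme classes: Gstm2, Gstm4, Gstm6, Gstm7, Gstp1 and Gstt2, the sulfotransferase Sult1a1, and Ugt1a5, Ugt1a6a, Ugt2b1, Ugt2b38 and Ugt3a1. Counting any size of difference, 27 of 34 genes (79.4%) were lower at 15 than at 9 months, against 55.2% of all genes. This count depends on the scaling. It was 23 (67.65%) with library totals, against 44.99% of all genes. With the 7 normalisation genes of the study it was 18 (52.94%), against 37.78% of all genes. These scalings move the median of all genes by 0.17 and 0.29 on the log2 scale. The share of the 34 genes stayed above that of all genes under every scaling tried. Relative to the median of all genes, the median of the 34 was 0.26 lower on the log2 scale. This distance is the same under every scaling by construction, because a scaling shifts all genes alike. The scalings are therefore no independent check of it. The shallow 15 month library was the lowest of the 4 for 15 of the 34 genes (44.1%), against 32.7% of all genes. Across the scalings 12 to 15 genes were lowest there, against 23.1% to 32.7% of all genes. The 12 came with the 7 normalisation genes, where the share of all genes was 23.1%. The part of its depth in this was not tested. Among genes with at least 100 counts in every library, 7 of 14 (50%) were lowest at 15 months, against 42.3% of all such genes.

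**Figure D3:**
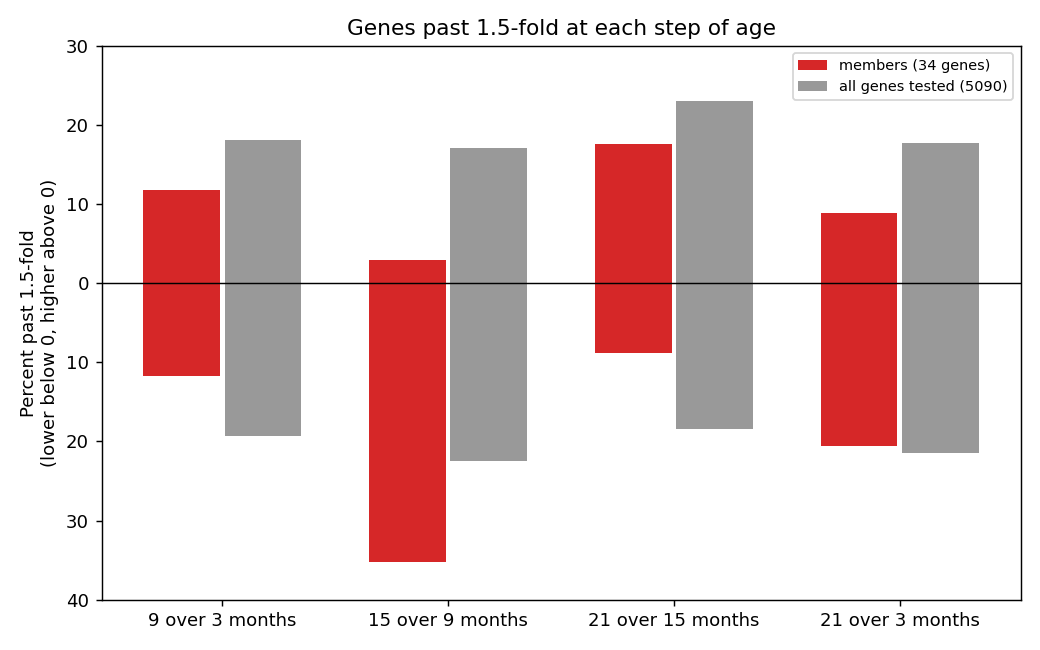
Percent of genes past 1.5-fold in each step of age and from 3 to 21 months, with genes that were higher above 0 and genes that were lower below 0. Red bars are the 34 conjugation genes and grey bars all 5090 genes tested; the red bar for lower genes from 9 to 15 months, 35.3%, is the one that reaches past its grey bar of 22.5%.

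The pi class took the largest share of the counts among the glutathione S-transferases at 3 and 9 months, and the mu class at 15 and 21 months. The pi class took 0.988%, 0.635%, 0.371% and 0.526% of all counts at 3, 9, 15 and 21 months. For the mu class the shares were 0.641%, 0.563%, 0.442% and 0.538%. Gstp1 (chr19:4035411-4037921 on NCBIM37, minus strand) and Gstp2 (chr19:4040291-4042221, minus strand) are neighbours that together span 6.81 kb. Gstp1 protects cells from electrophiles and is abundant in the liver of male mice. It had 9437 counts at 3 months, 6068 at 9, 1941 at 15 and 3848 at 21 months. These gave clr-normalised counts that were highest at 3 and lowest at 15 months. The ratio of 21 over 3 months was 0.516 (95% exact interval 0.497 to 0.535). Between 9 and 15 months it was 0.520, and from 15 to 21 months it was 1.51. The chi-square statistic was 2715 with 3 degrees of freedom. The fitted trend was -1.09 ± 0.33 (SE) on the log2 scale over the 18 months, with an unadjusted p of 0.00224 and an adjusted p of 0.292 in edgeR's quasi-likelihood test.

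Gstp2 had low counts, with 7, 21, 10 and 22 at 3, 9, 15 and 21 months. From 3 to 9 months its ratio was 3.07 where that of Gstp1 was 0.658, whereas from 9 to 15 months both were lower and from 15 to 21 months both were higher. The ratio of 21 over 3 months was 3.97 (1.64 to 11.01), and the chi-square test passed (adjusted p = 0.0266). Gstp2 made up 0.0741% (95% Wilson interval 0.0359 to 0.153) of the pi class counts at 3 months and 0.568% (0.376 to 0.859) at 21 months. To see where reads could be lost as not unique, 35 base windows of the first 100 transcript bases were searched in NCBIM37, allowing 1 mismatch. For Gstp1 none occurred elsewhere, whereas 43.9% of the Gstp2 windows did, in Traf5.

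Gstp1 was the leading glutathione S-transferase at 3, 9 and 21 months, and Gstm1 was at 15 months. Of all soluble glutathione S-transferase counts, Gstp1 took 55.3%, 47.0%, 38.7% and 42.6% at 3, 9, 15 and 21 months, and Gstm1 took 32.7%, 37.2%, 41.9% and 39.6%. Per kb of the longest annotated transcript, the mean clr-normalised count was 6508 for Gstp1 and 2968 for Gstm1. The next highest were Mgst1 with 727, Sult1a1 with 475 and Ugt2b36 with 411. Since the reads came from 5'-ends, such levels per kb are only a rough guide.

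The mu class lies on chromosome 3 (107698739-107847812 on NCBIM37), apart from the processed copy Gstm2-ps1. These enzymes conjugate aryl compounds and epoxides. Of its 8 genes 7 were tested, and 5 passed the chi-square test, against 37.7% of all genes. At 21 months 2 were lower past 1.5-fold than at 3 months, against 21.4% of all genes. Gstm1 had 5584, 4804, 2105 and 3583 counts, a ratio of 21 over 3 months of 0.811 (0.778 to 0.846) and an adjusted p of 9.7e-75 in the chi-square test. Its clr-normalised count was lowest at 15 months.

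Gstm3 had 91, 52, 27 and 39 counts, and the ratio of 21 over 3 months was 0.542 (0.362 to 0.797). Its higher value stood at 3 months and all 3 later libraries lay below it. Gstm4 had 40, 46, 14 and 14 counts and a ratio of 0.443 (0.222 to 0.831). Here 3 and 9 months lay high and 15 and 21 months low. Both passed the chi-square test, with adjusted p of 0.00133 for Gstm3 and 0.0110 for Gstm4.

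Gstm6 had 193, 263, 81 and 156 counts, with an adjusted p of 1.98e-06 in the chi-square test and 15 months as the lowest value. Gstm2 had 55, 80, 25 and 47 counts and passed the same test. Gstm7 had 102, 112, 40 and 71 counts and Gstm2-ps1 had 53, 31, 29 and 45, and neither passed. Their ratios of 21 over 3 months ranged from 0.880 for Gstm7 to 1.08 for Gstm2. In Gstm2-ps1 86.4% of the first windows also match other places such as Gstm1, so its counts are uncertain, and in Gstm1 45.9% do.

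The theta class enzymes act on small halogenated compounds. Gstt1 had 428, 367, 167 and 364 counts and Gstt2 had 53, 56, 14 and 45. Both passed the chi-square test (adjusted p = 3.86e-06 and 0.0404) with 15 months as the lowest age, and their ratios of 21 over 3 months were 1.08 and 1.07. From 9 to 15 months Gstt2 had a ratio of 0.406, and from 15 to 21 months of 2.44. Gstt3 had 40, 35, 23 and 38 counts and did not pass.

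The alpha class reduces lipid peroxides and conjugates lipid aldehydes, the latter mostly by Gsta4. None of its 3 tested genes passed the chi-square test, against 37.7% of all genes. Gsta3 had 311, 364, 201 and 270 counts, with a ratio of 21 over 3 months of 1.098 (0.929 to 1.30). Gsta4 had 108, 91, 63 and 53 counts, a ratio of 0.621 (0.438 to 0.870) and an adjusted p of 0.0703. Gsta2 had 24, 34, 19 and 27 counts, and 62.8% of its first windows match a second place, mostly copies of the same class.

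Single genes stand for 3 further classes of soluble enzymes, and none passed the chi-square test. The kappa enzyme Gstk1 of mitochondria and peroxisomes had 276, 247, 118 and 202 counts. The omega enzyme Gsto1 had 69, 42, 30 and 52 counts. Gstz1, which acts in tyrosine breakdown, had 185, 182, 107 and 162 counts. Their ratios of 21 over 3 months were 0.925, 0.953 and 1.11. All of the first 100 transcript bases of Gstz1 also lie in exons of Pomt2, so some of its reads may not have been counted.

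Mgst1, the membrane-bound form of the endoplasmic reticulum and mitochondria, had 1088, 1080, 591 and 738 counts. Its ratio of 21 over 3 months was 0.858 (0.780 to 0.943), with an adjusted p of 0.00424 in the chi-square test. The libraries of 3 and 9 months were close to each other, and 21 months was lowest.

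Among the sulfotransferases 2 genes could be tested, and both passed the chi-square test, against 37.7% of all genes. Sult1a1, which sulfates simple phenols, had 707, 925, 305 and 786 counts. It alternated from library to library, high at 9 and 21 months and low at 3 and 15 months. The ratio was 1.34 from 3 to 9 months, 0.536 from 9 to 15 months and 1.96 from 15 to 21 months, with an adjusted p of 1.05e-27. Over the whole range it was 1.41 (1.27 to 1.56), under the 1.5-fold threshold.

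Sult1d1, which sulfates catecholamines and other amines, had 49, 80, 58 and 78 counts. It was the one gene of the 34 whose clr-normalised count was higher at every step of age, as for 3.67% of all genes. The last step, from 15 to 21 months, was small (0.03 on the log2 scale) and was negative, down to -0.06, with library totals, TMM factors or the 7 normalisation genes. The ratio of 21 over 3 months was 2.01 (1.39 to 2.94), with an adjusted p of 0.00286 in the chi-square test. In edgeR's quasi-likelihood test the trend had an unadjusted p of 0.0494. Its share of the Sult1 counts was 6.31% at 3 and 15.8% at 15 months, where Sult1a1 was low. The Sult1 family as a whole took 0.0812%, 0.107%, 0.0696% and 0.119% of the counts. The directions of this family sum held under all 6 scalings.

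The remaining sulfotransferases were at or near 0. Sult1e1, the oestrogen sulfotransferase, and the 7 Sult2a genes had no count at any age. Sult2a enzymes sulfate bile acids and steroids, whereas Sult2a7 is annotated as a pseudogene. For Sult1c1, Sult2a1 and Sult2a2 100% of the first windows match a second place in the genome. A count of 0 for these genes cannot be told apart from expression that was not uniquely mapped. For Sult2a4 and Sult2a5 66.0% and 73.3% of the first windows did, and for Sult2a3 10.6%. For Sult1e1, Sult2a6 and Sult2a7 no first window did. Sult1b1 had 14, 11, 3 and 8 counts.

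The Ugt1 genes lie on chromosome 1 (89951963-90116577 on NCBIM37) and splice different first exons to common exons. Between 48.8% and 82.7% of the exon bases of the 4 tested genes belong to more than 1 Ugt1a gene. Records that overlap several genes stand in a row of their own in the files and are not in the gene counts, so reads from common bases may be missing here and the counts are uncertain. Ugt1a1, the enzyme of bilirubin conjugation, had 45, 48, 30 and 21 counts. The ratio of 21 over 3 months was 0.590 (0.334 to 1.01), and 21 months was its lowest age.

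Ugt1a6a, which acts on small phenols, had 34, 48, 15 and 18 counts and was the one Ugt1 gene to pass the chi-square test (adjusted p = 0.0361). Of its first windows 78.4% match a second place, so its counts are uncertain. Ugt1a9 had 133, 122, 56 and 82 counts and Ugt1a5 had 53, 58, 23 and 39. Together the Ugt1 genes took 0.0289%, 0.0291%, 0.0247% and 0.0232% of the counts.

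The Ugt2 genes conjugate steroids and bile acids and lie on chromosome 5 (87318792-88020636 on NCBIM37) beside Sult1b1, Sult1d1 and Sult1e1. Of 9 genes 7 were tested and 5 passed the chi-square test, against 37.7% of all genes. From 3 to 21 months 1 was higher and 1 lower past 1.5-fold, against 17.7% and 21.4% of all genes. The sum of the family took 0.253%, 0.289%, 0.267% and 0.244% of the counts. Its log2 ratio of 15 over 9 months was -0.28, and 0.01 with the 7 normalisation genes.

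Ugt2b36 was the most abundant with 1008, 965, 513 and 720 counts and a ratio of 21 over 3 months of 0.903 (0.820 to 0.995). Ugt2b5 had 598, 772, 385 and 507 counts and Ugt2b35 had 239, 354, 180 and 179. Both were highest at 9 months and both passed the chi-square test. Ugt2b1 had 365, 438, 172 and 219 counts, a ratio of 0.759 (0.639 to 0.899) and an adjusted p of 1.30e-08. Its libraries fell into a higher pair at 3 and 9 months and a lower pair at 15 and 21 months.

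Ugt2a3 had 40, 67, 37 and 56 counts and lay lowest at 3 months, with a ratio of 1.77 (1.16 to 2.73), but the chi-square test did not pass (adjusted p = 0.0593). Ugt2b34 had 134, 151, 109 and 111 counts and did not pass either. Ugt2b38 had 26, 24, 8 and 5 counts and was the one gene of the 34 that was lower at every step, as for 4.79% of all genes. The ratio of 21 over 3 months was 0.243 (0.0729 to 0.644), with an adjusted p of 0.0242 in the chi-square test. All first windows of Ugt2b38 match a second place, as do 87.5% of those of Ugt2b5, mostly in the close copies Ugt2b5, Ugt2b36, Ugt2b37 and Ugt2b38. Reads from such windows may not be unique, so the counts of these genes are uncertain.

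The Ugt3 enzymes use sugar donors other than glucuronic acid. Both genes lie on chromosome 15 (9209584-9300710 on NCBIM37), and both passed the chi-square test, against 37.7% of all genes. Ugt3a1, which transfers N-acetylglucosamine to bile acids, had 53, 40, 7 and 19 counts. It was lowest at 15 months, where 7 counts stood against 40 at 9 months in a library with a scale factor of 0.728 against 1.18. The ratio of 21 over 3 months was 0.453 (0.253 to 0.778), with an adjusted p of 0.000479.

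Ugt3a2 had 258, 305, 158 and 145 counts and was lowest at 21 months, with a ratio of 0.711 (0.576 to 0.874) and an adjusted p of 3.61e-05. Ugt3a1 took 17.04%, 11.6%, 4.24% and 11.6% of the counts of the pair. The 2 genes thus differed in the age of their lowest value.

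**Figure D4:**
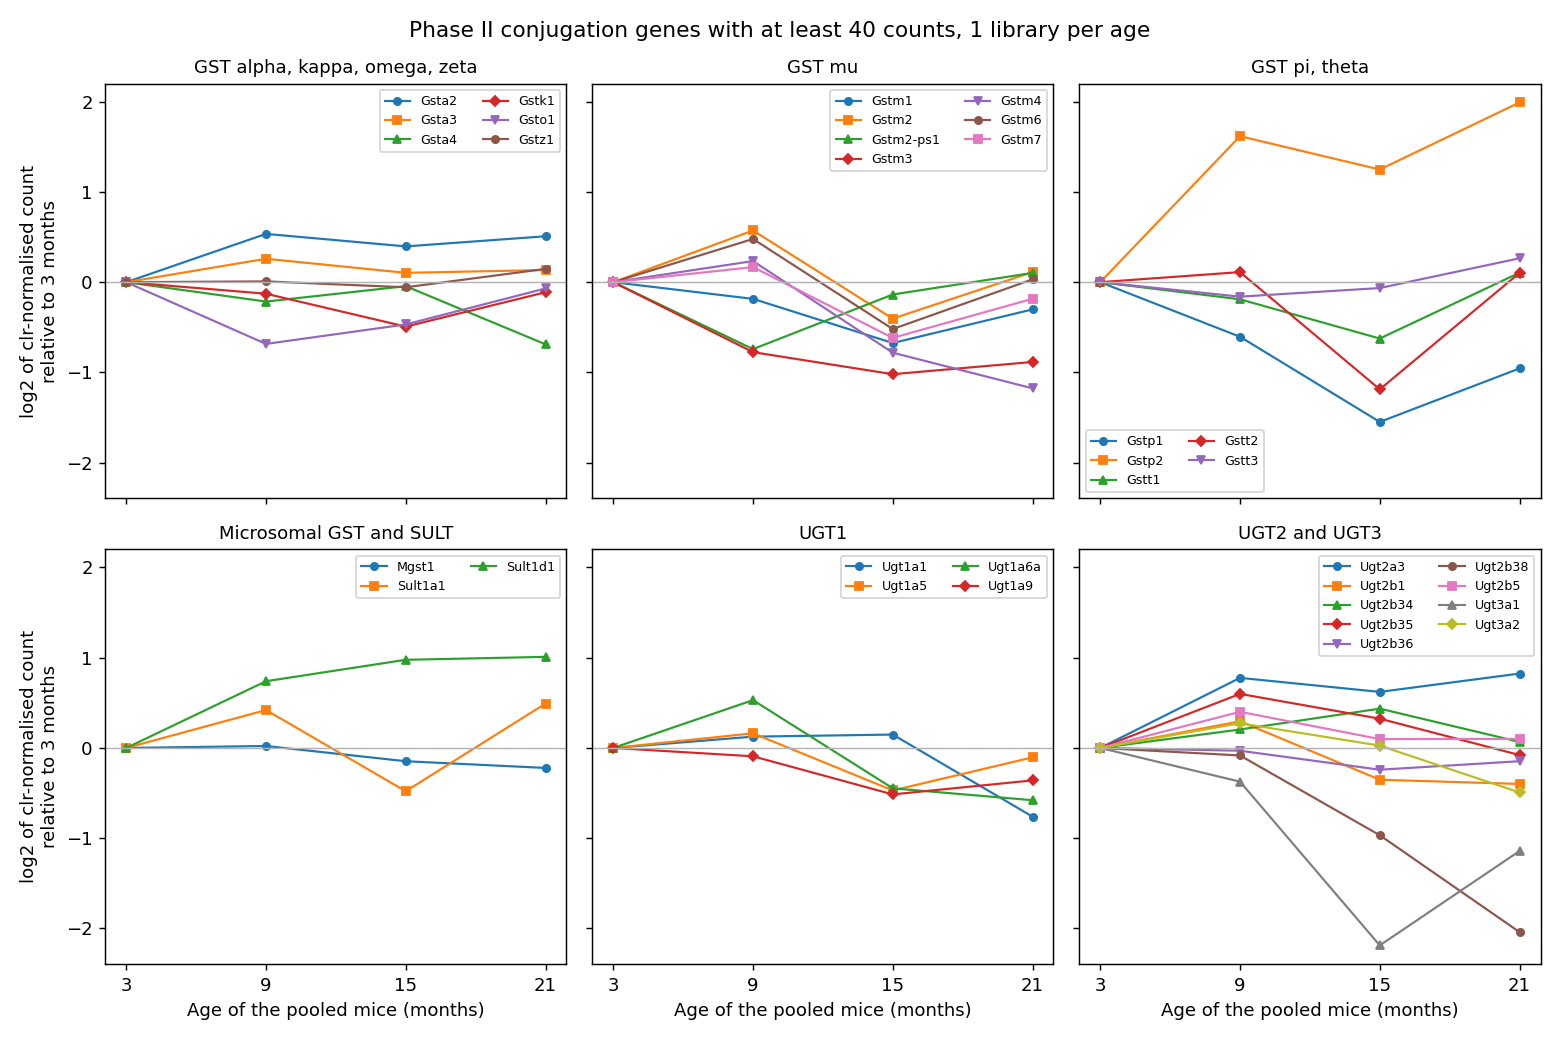
log2 of the clr-normalised count at each age relative to 3 months for the 34 genes with at least 40 counts, in 6 panels by family, 1 pooled library per age. Gstp2 and Sult1d1 lie above 0 at all later ages, Gstp1, Gstm3, Ugt2b38 and Ugt3a1 lie below 0, and many lines dip at 15 months.

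Other genes of the pathway were counted from lists, and the same shares of all genes apply to each list. For the supply of glucuronic acid, 3 of 6 tested genes passed the chi-square test, against 37.7% of all genes, and none was past 1.5-fold from 3 to 21 months, against 17.7% higher and 21.4% lower. This list had a median log2 ratio of -0.03. Ugdh, which makes UDP-glucuronic acid, had 28, 57, 20 and 33 counts. For sulfate, 2 of 6 passed, Papss2 and Slc26a1, and the median was 0.47. Past 1.5-fold were Arsa with a ratio of 1.69 and Bpnt1 with 0.632, and neither passed the test. Papss2, which makes the sulfate donor PAPS, had 406, 461, 205 and 448 counts and a ratio of 1.40 (1.22 to 1.60). Like Sult1a1 it was highest at 21 and lowest at 15 months.

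For glutathione supply and turnover, 6 of 9 tested genes passed the chi-square test (37.7% of all genes), 3 were higher and 2 lower past 1.5-fold (17.7% and 21.4% of all genes), and the median was -0.16. Gclc, the catalytic subunit of the rate-limiting enzyme of glutathione synthesis, had 120, 96, 31 and 40 counts and a ratio of 0.421 (0.287 to 0.607). Gsr, which reduces oxidised glutathione, had 60, 22, 25 and 25 counts. Cth, which makes cysteine, had 133, 240, 85 and 227 counts and a ratio of 2.16 (1.73 to 2.69). The others past 1.5-fold were Gss and Lap3, both higher. The list thus held genes with ratios on both sides of 1.

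Of 12 tested enzymes of methylation, acetylation and amino acid conjugation 9 passed the chi-square test (37.7% of all genes), with a median of 0.00. Past 1.5-fold were Nnmt and Acsm3, with ratios of 1.68 and 0.571, and As3mt with 1.51, which did not pass the test. Among 13 regulators 4 passed, with 1 higher, 2 lower and a median of 0.10. Stat5b, which transmits growth hormone signals, was higher with 18, 26, 12 and 35 counts. Nr0b2, a repressor that acts in bile acid feedback, was lower with 25, 20, 12 and 4 counts, and Bcl6, the other lower gene, did not pass the chi-square test. Nfe2l2, which encodes NRF2, had 118, 94, 45 and 96 counts. Of 8 tested NRF2 targets outside the families 4 passed, with a median of -0.28. Past 1.5-fold was Srxn1 with a ratio of 0.482, which did not pass the test. Ephx1, an epoxide hydrolase, had 497, 371, 250 and 266 counts and a ratio of 0.677 (0.581 to 0.787). No gene of these lists passed the trend test after adjustment.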

How the data were processed

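Liver RNA was measured in 4 libraries, 1 per age. The authors enriched capped 5'-ends, sequenced 35 base reads on a SOLiD instrument and mapped them to mm9 (NCBIM37). The deposited files hold raw counts per gene symbol. The submitters' processing notes name HTSeq, and its version and settings are not given in the sources used here. The 5 rows of records not assigned to a gene were left out, so that 6.67% to 8.42% of the records per library entered. Reads that overlap several genes (0.377% to 0.473%) and reads without a unique alignment are not in the counts.

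Counts were scaled by clr factors. Genes with at least 40 counts in total were tested by chi-square and by edgeR 4.0.16 (quasi-likelihood, common dispersion fitted, R 4.3.3), with Benjamini-Hochberg adjustment over 5090 genes. Ratios have exact Clopper-Pearson and shares Wilson intervals (95%). Python 3.11.15 with scipy 1.17.1 was used, and both tests were tried on simulated data. Alternatives were other scalings, other filters, a pseudocount of 0.5, 2-fold, leaving out each age and DESeq2 1.42.0. Every gene of the 63 with at least 40 counts is named. The members, lists and rules were chosen with earlier results of these data known, and 1 promoter motif after a sequence had been read. Gene positions come from GENCODE M1, promoters from RefSeq. A few genes of the lists are not reported here. Sts was not analysed here, nor were the other assays of the study.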

Additional observations from a re-analysis of the deposited data

How the results depend on the processing

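The chi-square count of 20 stayed between 16 and 20 under all 12 alternatives, but the share of all genes that passed moved more. It was 19.5% without a filter, where 17 of 46 genes of the 63 passed. With 1 library left out it lay between 24.3% and 29.4%, and with the 7 normalisation genes it was 40.8%. The trend count of 0 held under 12 of 13 alternatives. Without the 21 month library it was 1, Gstp1, with an adjusted p of 0.000105 in edgeR's quasi-likelihood test, whereas over the other alternatives its adjusted p lay between 0.1585 and 0.9984, and was 0.9998 with DESeq2. The cause was not tested. Without a filter on low counts, more genes are tested, 46 of the 63, and the shares of all genes are larger too. From 3 to 21 months 5 were higher against 28.15% of all genes, and 15 were lower against 30.03%. From 3 to 9 months 11 were lower against 27.45%, and from 9 to 15 months 4 were higher against 27.01%. From 15 to 21 months 12 were higher against 32.04%, and 7 were lower against 26.18%. With 2-fold as the threshold the counts of the 34 genes were smaller by construction, as were the shares of all genes, given here in brackets. From 3 to 21 months 2 were higher (8.37%) and 3 lower (10%), and from 3 to 9 months 1 higher (7.6%) and 0 lower (8.53%). From 9 to 15 months 0 were higher (7.5%) and 3 lower (10.5%), and from 15 to 21 months 2 higher (11%) and 1 lower (8.92%). With the 7 normalisation genes 2 of the 34 were higher past 1.5-fold from 3 to 9 months, against 13.2% of all genes. The summed share of all 63 genes at 21 over 3 months was 0.756, and 0.779 without the 10 most abundant genes and 0.736 on the clr scale. The log2 ratios of named genes at 21 over 3 months kept their direction in all 204 recalculations. For the other scalings this could not come out otherwise. Each raised all these ratios alike, by 0.0093 to 0.044, and the smallest decrease was -0.07, for Gsto1. Of the 102 ratios between successive ages, 17 changed direction under at least 1 other scaling. No paired analysis was possible because each age has 1 library. With 1 library per age, differences between ages and between single pools cannot be told apart, and genes with few counts have wide intervals.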
